A study of Mus musculus with 15 samples.

Results

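Lungs of mice that had breathed an aerosol of rod-like carbon nanotubes (rCNT) were compared with lungs of untreated mice. The samples were chosen by their labels, without use of any measured value, and number 7 of the 15 in the series, 3 with inhaled rCNT and 4 untreated. RNA of whole lung was read on Agilent oligonucleotide arrays, and each sample is 1 colour channel of an array. All mice were female C57BL/6 animals of 7 to 8 weeks. The aerosol held 6.2 to 8.2 mg rCNT per cubic metre and was breathed for 4 h per day on 4 days, and lungs were collected 24 h after the last exposure. The untreated mice had no exposure, so restraint, handling and the air stream of an exposure chamber cannot be told apart from rCNT in this comparison. Mice that had aspirated phosphate-buffered saline (PBS), 50 µl on each of 4 days, gave 4 samples that served as a second control. They lie on another slide, and slide, route and vehicle cannot be told apart there.

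For untreated sample 1 the labels conflict, because its title speaks of aspirated saline and its source name of an untreated lung. It was kept as untreated, and without it 6728 genes were higher and 8035 lower. The names of the inhalation RNAs on the arrays call them numbered pools, and the labels do not say whether samples are separate animals. The p-values thus rest on differences among arrays that may be technical rather than between animals. Untreated samples 1 to 3 and inhaled sample 1 lie on slide 2, and untreated sample 4 and inhaled samples 2 and 3 on slide 3, so each change can also be read within a slide. Inhaled sample 2 and untreated sample 4 are the 2 colours of 1 array. All 12 lung markers that were checked, among them Sftpc and Sftpb of alveolar type 2 cells, Ager of alveolar type 1 cells, Scgb1a1 of club cells, Foxj1 of ciliated cells, Cldn5 of vessels and Krt5 of basal cells, were well above background in all 7 samples.

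Inhaled particles that settle in the airways are met by mucus, which goblet and club cells secrete and which ciliated cells sweep towards the throat. Particles that pass into the alveoli are taken up by alveolar macrophages, and fibre-shaped ones are hard for these cells to clear. Epithelial cells that sense damage release chemokines, acute phase proteins and alarmins such as interleukin 33, which can start a type 2 response, the form of inflammation known from allergy. Glucocorticoid hormones, metals and the daily clock each have their own sets of target genes in the lung.

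The groups separated over the whole array. The first principal component of the 7 samples held 80.4% of the variance, with inhaled samples at 44.0 to 55.5 and untreated samples at -39.6 to -34.9. Of 25251 genes or unnamed transcripts tested, 6982 (27.7%) were higher and 8374 (33.2%) lower in inhaled samples, at an adjusted p below 0.05 in limma with Benjamini-Hochberg adjustment over all of them. With the arrays centred on their median instead of quantile-normalised, the split was 3701 higher to 10200 lower, so that 26.6% of the calls were higher in place of 45.5%. Under that scaling the median change of all genes was -0.16, against -0.03 here. Past a 2-fold change were 1029 genes upward (4.08%) and 474 downward (1.88%). All 3 inhaled samples lay above all 4 untreated samples for 6350 (25.1%) and below them for 7528 (29.8%). Of the 6982 higher genes 6931 had a positive change within both slides, and of the 8374 lower genes 8317 a negative one. With 60.8% of all genes called in either direction, a gene list is read here by how its counts and its median change stand beside these shares and beside the overall median of -0.03.

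**Figure D1:**
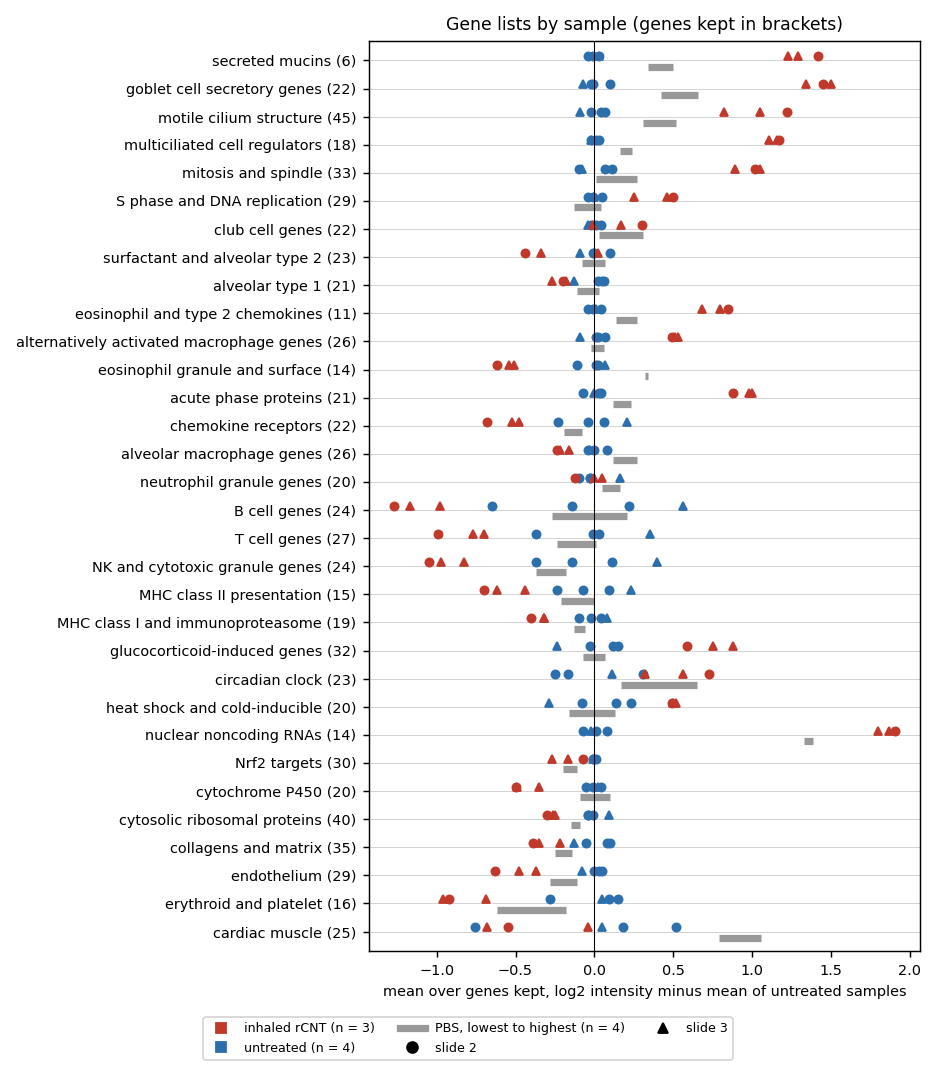
Mean of the kept genes of 32 lists in each sample, as log2 intensity minus the mean of the untreated samples. Red symbols are the 3 inhaled and blue symbols the 4 untreated samples, with circles for slide 2 and triangles for slide 3, and grey bars span the 4 PBS samples. The mucin, cilium, mitosis and nuclear RNA lists lie to the right of all untreated samples, and the B, T and natural killer (NK) cell lists to the left. Untreated samples spread widely for B cell genes (-0.65 to 0.56) and for cardiac muscle genes (-0.76 to 0.52).

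Most mucus genes rose. Clca1, a secreted goblet cell protein, had normalised log2 intensities of 15.39, 15.34 and 14.66 in the inhaled samples and of 9.52, 8.90, 9.01 and 8.04 in the untreated samples. The ranges lie far apart, and Clca1 had the largest rise of any named gene, by 6.18 ± 0.46 (log2 fold change ± SE, adjusted p = 1.82e-08), or 72.3-fold. Against the PBS samples, which stood at 9.91 to 12.31, the rise was 3.78. Of the 6 kept secreted and membrane mucins 5 rose, with a list median of 1.28. The gel-forming airway mucin Muc5b was at 15.49, 15.42 and 15.53 in inhaled and at 12.88, 12.87, 12.41 and 12.90 in untreated samples, a rise of 2.67 ± 0.13. Muc5ac, the other gel-forming airway mucin, rose by 1.95 ± 0.25 and the membrane mucins Muc4 and Muc20 by 2.42 and 0.61. Second probes of Muc4 and Muc20 rose by 1.06 and 0.16. Muc1 was at -0.12 and did not pass (adjusted p = 0.157 in limma). With median centring 3 of the 6 rose and Muc1 fell by 0.43, and against PBS Muc1 fell by 0.42.

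The secretory genes that go with these mucins moved with them. Of 22 kept goblet cell secretory genes 16 rose and 1 fell, with a median change of 1.21, and for 15 all inhaled samples lay above all untreated ones. Within slide 2 that median was 1.18 and within slide 3 it was 1.25, and against PBS it was 0.69. Agr2, which folds mucins in the endoplasmic reticulum, was at 11.44, 11.11 and 11.01 against 7.51, 7.15, 7.35 and 7.16, a rise of 3.86 ± 0.13. Slc26a4, the anion exchanger pendrin of the airway surface, rose by 3.26 ± 0.29, Dmbt1, a mucus-borne binder of bacteria that was well above background in 1 of 4 untreated samples, by 2.60, and Pigr, which carries IgA into the lumen, by 2.29. Spdef, the transcription factor of goblet cells, rose by 1.08 and the trefoil factor Tff2 by 1.90. Itln1, an intestinal and airway lectin, was not well above background in any untreated sample and was at least 2.70-fold higher. Such a bound sets each dim sample at no less than the lowest signal well above background.

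Airway defence proteins of club and goblet cells took different directions against the second control. Of 18 kept genes of secreted airway host defence 7 rose and 5 fell (median 0.20, and 0.04 within slide 3). Against PBS 10 rose and 6 fell (median 0.48). Reg3g, an antibacterial lectin, rose by 2.94 ± 0.29, and by 0.71 against PBS. Bpifb1, a long lipid-binding airway protein, rose by 1.99. Scgb3a1, a secretoglobin of the upper airways, was at 16.54, 16.17 and 16.26 against 14.58, 14.32, 14.40 and 13.95, a rise of 1.96. PBS samples had a mean of 16.03 for Scgb3a1, close to the inhaled samples, and that difference of 0.24 did not pass (adjusted p = 0.320). Bpifa1, a short relative of Bpifb1, was at 0.48 and did not pass against untreated samples, and it fell by 1.45 against PBS.

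Ciliated cell genes rose, both regulators of cell fate and parts of the axoneme, the shaft of the cilium. Of 18 kept regulators of multiciliated cells 15 rose and 1 fell (median 0.85), and of 45 kept genes of the motile cilium 39 rose and 2 fell (median 0.98). Within slides 2 and 3 the cilium median was 1.05 and 0.95, and against PBS, where 26.6% of all genes were higher and 28.5% lower, 37 rose and 1 fell (median 0.57). The promoters of cilium genes are known to carry X-boxes, the sites of RFX transcription factors. In the 250 bases upstream of the RefSeq start (GRCm38.p6, both strands searched), the X-box core (GTTGCC, any 2 bases, then GG) was found for 4 of 44 cilium genes with a promoter entry (9.09%) and for 2.12% of 27025 genes. Dnah10, a heavy chain of inner dynein arms (chr5:124724835-124725084, plus strand), and Drc1, a part of the nexin-dynein complex (chr5:30281143-30281392, plus strand), are shown because both hold the letters just upstream of their start, with the matches in capitals.
Dnah10: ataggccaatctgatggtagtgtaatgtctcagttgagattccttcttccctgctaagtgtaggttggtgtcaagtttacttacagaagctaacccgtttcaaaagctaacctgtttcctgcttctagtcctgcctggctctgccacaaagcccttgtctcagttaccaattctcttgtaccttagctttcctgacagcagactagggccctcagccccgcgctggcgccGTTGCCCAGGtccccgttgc
Drc1: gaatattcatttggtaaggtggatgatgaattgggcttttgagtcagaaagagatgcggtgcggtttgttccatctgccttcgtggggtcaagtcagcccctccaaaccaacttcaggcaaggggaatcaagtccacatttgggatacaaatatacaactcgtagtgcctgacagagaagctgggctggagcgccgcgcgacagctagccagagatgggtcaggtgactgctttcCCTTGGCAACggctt
The match in Dnah10 starts 20 bases and the match in Drc1, on the other strand, 15 bases before the start. A match of letters is a description of the sequence and shows no binding.

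Among the regulators, Foxn4 was at 10.86, 11.30 and 10.85 in inhaled samples and at 7.67 to 7.85 in untreated samples, a rise of 3.29 ± 0.16. Foxn4 is a transcription factor of multiciliated cells, and Deup1, which builds the deuterosomes on which their many centrioles form, rose by 2.92 ± 0.12. Deup1 stood at 12.34, 12.36 and 12.21 against 9.46, 9.22, 9.22 and 9.48, and its other 2 probes rose by 2.59 and 2.01. Ccno and Ccdc78, which act in the same centriole amplification, rose by 2.64 and 2.25, Myb, an early factor of ciliating cells, by 2.01, and Gmnc, at the top of the programme, by 1.46. Foxj1, the master factor of motile cilia, was at 12.77, 12.44 and 12.70 against 11.07, 11.01, 11.03 and 11.09, a rise of 1.55 ± 0.08, and it rose by 1.47 against PBS. E2f5, a partner of the geminin-like factors, fell by 0.50.

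The parts of the cilium differed in how their change stood against PBS. Dnah2, an inner arm dynein, rose by 2.62 ± 0.10 and Ccdc39, a ruler of axoneme length units, by 2.29 ± 0.09, and against PBS they rose by 0.70 and 1.33. Cfap65 rose by 2.32, Dnah10 by 2.07, Rsph1, a radial spoke head protein, by 1.68, Zmynd10, an assembly factor of dyneins, by 1.86 and Drc1 by 1.06. A second probe of Dnah10 rose by 0.26, far less than the first. Sntn, a protein of the ciliary tip, was at -0.01, and Tppp3, a tubulin-binding protein, fell by 0.50. Tuba1a, an alpha tubulin of many cell types, fell by 0.58 and was at 0.01 against PBS.

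Genes of dividing cells rose in the same samples. Of 33 kept genes of mitosis and the spindle 29 rose and none fell, with a median of 1.07 against untreated samples and of 0.97 against PBS. Mki67, the proliferation marker, was at 11.63, 11.33 and 11.62 in inhaled and at 9.54, 9.18, 9.34 and 9.16 in untreated samples, a rise of 2.21 ± 0.11 (adjusted p = 2.20e-10). Cenpe, a kinetochore motor, rose by 1.91, Birc5, an inhibitor of apoptosis at the midzone, by 1.81, and Cdc20, the activator of the anaphase complex, by 1.55. The other probes of Birc5 rose by 0.78 and 0.69. The kinase gene Cdk1 rose by 1.54 with 1 probe, and its other 2 probes were at 0.60 and 0.09. Genes of DNA replication rose in part, with 14 of 29 higher, 1 lower and a median of 0.19. Against PBS 18 were higher and 1 lower (median 0.29). Uhrf1, Rrm2 and Tk1, which copy methylation and make nucleotides, rose by 1.83, 1.45 and 1.31, although a second probe of Uhrf1 was at 0.22. The replication clamp Pcna (-0.10) and the helicase subunits Mcm2 (-0.02) and Mcm3 (-0.03) did not pass against untreated samples. Against PBS, Mcm2 rose by 0.51 and Mcm3 by 0.26. With median centring 9 of the 29 passed as higher, and Pcna and Mcm3 fell.

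**Figure D2:**
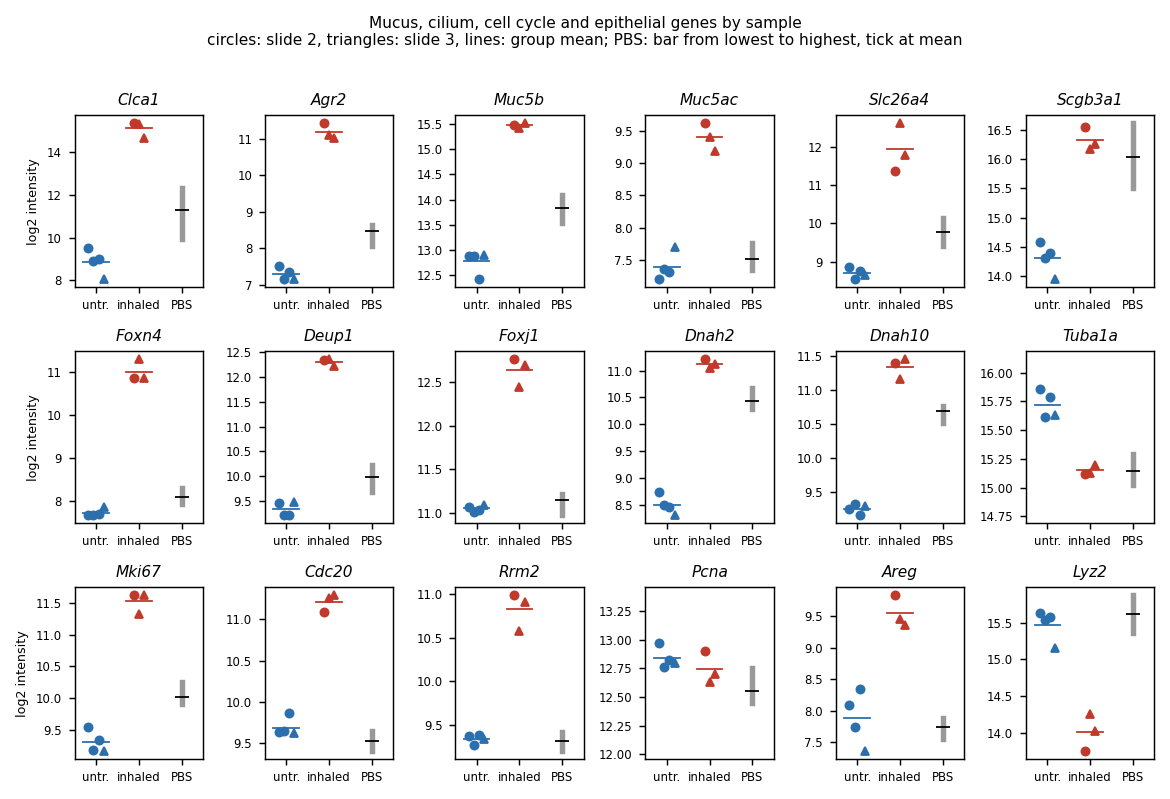
Log2 intensity of 18 epithelial and cell cycle genes in each sample, with the group means as lines, slide 2 as circles and slide 3 as triangles, and the 4 PBS samples as a grey bar from lowest to highest. Clca1, Muc5b, Foxj1 and Mki67 lie above all untreated samples on both slides, Pcna overlaps, and Lyz2 lies below (13.75 to 14.25 against 15.15 to 15.63).

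Genes of the other epithelial cells went both ways. Of 22 club cell genes 8 were higher and 8 lower, with a median of 0.00, and 4 were higher with median centring. The secretoglobin Scgb1a1 did not pass (-0.05, adjusted p = 0.847) but was higher by 0.71 with cyclic loess, while Cyp2f2, an oxidase typical of club cells, fell by 0.77. Scgb1a1 lies at 18.02 to 18.58, at the top of the scale, where quantile normalisation sets the highest value of every sample to 18.58. Of 23 genes of surfactant and alveolar type 2 cells 4 rose and 8 fell (median -0.22), and without inhaled sample 2, or with median centring, 17 fell. The surfactant genes Sftpc (-0.32) and Sftpb (0.08) did not pass. Sftpc lies at 17.3 to 18.58 and so also reaches the highest value of the scale. Sftpc did pass as lower with median centring (-0.65), processed signal (-0.42), slide as a block (-0.47), without inhaled sample 2 (-0.46) and against PBS (-0.38). Within slide 2 Sftpc was at -0.49, and with cyclic loess it was at 0.22 and did not pass. Sftpb was lower with median centring (-0.35) and higher with cyclic loess (0.46). Sftpd, a surfactant collectin, rose by 0.50, but its second probe was at 0.13. Its chosen probe did not pass with median centring (0.12), and was at 0.38 within slide 2 and at 0.93 with cyclic loess. Lyz2, a lysozyme of type 2 cells and macrophages, was at 13.75, 14.25 and 14.02 against 15.63, 15.53, 15.58 and 15.15, and fell by 1.46 ± 0.14. Napsa, which processes surfactant protein, fell by 0.98. Of 21 genes of alveolar type 1 cells 3 rose and 11 fell (median -0.21), and 17 fell with median centring. Ager fell by 0.34 and the water channel gene Aqp5 fell by 0.43, which was at 0.08 against PBS. Cav2 fell by 1.0 with the chosen probe, and 1 of its other 2 probes was higher by 0.29. Spock2, a matrix proteoglycan, rose by 0.89.

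Of 18 genes of basal cells and epithelial repair 7 rose and 2 fell (median 0.10), and 3 were higher with median centring. Areg, the growth factor amphiregulin, rose by 1.69 ± 0.19 and lay at 9.84, 9.46 and 9.36 against 8.10, 7.74, 8.35 and 7.36. The basal keratin Krt5 was at 0.19 and did not pass. Trp63, the basal cell factor, rose by 0.34 but was at -0.06 with median centring.

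Type 2 cytokine and receptor genes stood near the shares of all genes, of which 27.7% were higher and 33.2% lower. Of 18 type 2 cytokines and receptors 5 rose and 6 fell (median -0.06, against -0.03 for all genes). The alarmin gene Il33 rose by 0.95 ± 0.16 and its receptor Il1rl1 by 0.87, although the other 2 probes of Il1rl1 were at 0.18 and 0.09. The cytokine gene Il13 was well above background in 1 of 3 inhaled samples and in no untreated sample, so no change is given for it, and Gata3, the factor of type 2 lymphocytes, fell by 1.19. Of 11 eosinophil and type 2 chemokine genes 6 rose and 2 fell (median 0.84), and against PBS the median was 0.23. Ccl17, which draws Th2 cells, was at 12.19, 12.26 and 12.57 against 10.07, 9.67, 9.99 and 9.73, a rise of 2.47 ± 0.16, and of 2.44 against PBS. Ccl8 and Ccl7, which draw monocytes and eosinophils, rose by 1.93 and 1.74. The eotaxin genes Ccl11 and Ccl24 rose by 1.01 and 0.84, and Ccl24 was at 0.22 against PBS and did not pass.

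Retnla and its relatives stood out among the genes of alternatively activated macrophages, of which 12 of 26 rose and 4 fell (median 0.21), with 4 higher under median centring. Retnla, a secreted protein that type 2 cytokines induce, was at 18.58, 17.57 and 18.58 in inhaled samples and at 13.46, 14.33, 13.68 and 13.55 in untreated samples. The rise was 4.53 ± 0.33, and inhaled samples 1 and 3 sit at the highest value the scale allows. Retnlb, its epithelial relative, was not well above background in untreated samples and was at least 7.15-fold higher. The chitinase-like genes Chil3 and Chil4 rose by 1.18 and 0.72 and the chitinase gene Chia1 by 0.92, and Fbp1, an enzyme of gluconeogenesis, rose by 1.54. Chil4 did not pass without inhaled sample 2 (0.44) or untreated sample 1 (0.64). Nor did it with median centring (0.43), slide as a block (0.67) or arrays weighted by their precision (0.56), among other settings. Within slide 2 Chil4 was at 0.42 and within slide 3 at 0.93. With median centring Chia1 was at 0.52 and did not pass. The arginase gene Arg1, another classical member, fell by 0.40, and without inhaled sample 2 it was at -0.24 and did not pass. Nor did Arg1 pass with cyclic loess (-0.16), slide as a block (-0.32) or arrays weighted by their precision (-0.31). Within slide 2 Arg1 was at -0.37 and within slide 3 at -0.27.

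Most genes of the eosinophil list were lower, while most of the eosinophil and type 2 chemokine genes were higher. Of 14 kept genes 3 rose and 8 fell (median -0.55), and the list mean was -0.62 to -0.51 in inhaled and -0.11 to 0.07 in untreated samples. Siglecf, a lectin of eosinophils and of alveolar macrophages, was at 8.47, 8.58 and 8.28 against 10.11, 10.40, 10.43 and 9.92, and fell by 1.72 ± 0.11. Ear1, a ribonuclease with near-identical copies that these probes may not tell apart, fell by 2.0. The eosinophil chemokine receptor gene Ccr3 fell by 0.69 and was well above background in 1 of 3 inhaled samples. For the granule protein gene Prg2 neither group had a sample well above background.

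Acute phase genes rose nearly throughout. Of 21 kept members 18 rose and 1 fell (median 0.74, and 0.70 against PBS). Saa3, a serum amyloid made in lung epithelium and macrophages, was at 11.87, 12.08 and 12.59 against 7.63, 7.55, 7.98 and 7.91, a rise of 4.39 ± 0.21 or 21.0-fold. Its close relatives Saa1 and Saa2, which probes may not fully tell apart, rose by 2.61 and by at least 2.36-fold. Lcn2, a binder of bacterial siderophores, rose by 1.89 and Hp, the haemoglobin binder haptoglobin, by 0.70. Interleukin 6 and its pathway induce many of these genes, and of 22 members of that pathway 10 rose and 4 fell (median 0.22). Il6, well above background in 1 of 4 untreated samples, rose by 0.75. Its signal transducer Stat3 rose by 0.73, with a second probe at 0.21, Osmr by 0.69 and the feedback inhibitor Socs3 by 0.56. With median centring 3 of the 22 passed as higher.

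Among the other chemokines, Cxcl1 and Ccl2, which draw neutrophils and monocytes, rose by 2.42 ± 0.25 and 2.04 ± 0.16. Cxcl1 was at 8.38, 9.73 and 8.68 in inhaled samples, highest in inhaled sample 2, and at 6.70, 6.54, 6.24 and 6.62 in untreated samples. Cxcl5 showed the same order, with 7.65, 9.01 and 8.00 against 7.03, 6.66, 7.40 and 6.28, and its rise of 1.42 ± 0.42 did not pass without inhaled sample 2 (1.01). For Cxcl1 and for Cxcl5, 2 of the 4 untreated samples were well above background. Ccl9 rose by 1.34, whereas Ccl5, a product of T and NK cells, fell by 1.73 and Cxcl12, a stromal chemokine, fell by 1.37, with a second probe of Cxcl12 at 0.14. Of 22 chemokine receptors 2 rose and 14 fell (median -0.68, and -0.26 against PBS).

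As a list, neutrophil genes stood near the shares of all genes, of which 27.7% were higher and 33.2% lower. Of 20 kept members 6 rose and 6 fell (median -0.01), and single members moved far in either direction. The calprotectin gene S100a8 was at 8.95, 9.56 and 9.87 against 12.13, 11.85, 11.79 and 12.67, and fell by 2.66 ± 0.28, and S100a9, which encodes the other chain, fell by 2.65 ± 0.28. Cxcr2, the receptor for Cxcl1, fell by 0.76, and Mmp9, not well above background in inhaled samples, was at least 2.31-fold lower. Ltf, lactoferrin of neutrophil granules and of airway glands, went the other way, at 13.28 ± 0.25 (mean ± SD, n = 3) against 10.13, 9.89, 9.84 and 10.14, a rise of 3.21 ± 0.13.

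Alveolar macrophage genes had 9 of 26 higher, 10 lower and a median of 0.03. These counts were not far from the shares of all genes (27.7% higher and 33.2% lower). Against PBS 6 were higher and 13 lower (median -0.40), and with median centring 4 were higher and 13 lower. Fabp1, a fatty acid binding protein, fell by 2.41 ± 0.13, from 10.76 to 11.13 in untreated samples down to 8.26 to 8.71. The lipid droplet gene Cidec fell by 1.45 and Pparg, the factor that sets the identity of these cells, fell by 0.43. Ctsk, a lysosomal protease, rose by 1.73 ± 0.08 and the scavenger receptor gene Marco by 1.19, which was at 0.13 against PBS. Trem2 and Spp1, known from lipid-laden and scarring macrophages, rose by 0.89 and 0.93. Timp1, an inhibitor of matrix proteases, rose by 1.70. The elastase gene Mmp12, not well above background in untreated samples, was at least 1.54-fold higher, and its second probe was at 0.20. Among 27 kept genes for enzymes that cut matrix, or for blockers of such enzymes, 10 were lower and 6 higher (median -0.02). In whole lung RNA, fewer cells of a type and less RNA per cell cannot be told apart, here and for every cell type named.

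Most genes of B, T and NK cells fell. Of 24 B cell genes none rose and 21 fell (median -0.90, and -1.02 against PBS). Ms4a1, the B cell surface protein CD20, was at 7.87, 8.66 and 8.23 in inhaled samples and at 11.26, 11.74, 10.19 and 12.36 in untreated samples, and fell by 3.19 ± 0.34 (adjusted p = 8.88e-07). The untreated samples themselves span more than 2 units, lowest in sample 3 and highest in sample 4, and yet none reached the inhaled samples. Fcmr, the receptor for IgM, fell by 3.03, and Cd79b, a chain of the B cell receptor, fell by 2.33. Cxcr5, which leads B cells into follicles, fell by 2.18 and Bank1, an adaptor, fell by 1.88. Of further genes of B cells and their kin, Fcrla fell by 2.24, Spib fell by 2.17 and Ly6d fell by 2.18. Of 9 plasma cell genes 2 rose and 4 fell (median -0.27). Genes of thymus and lymph node, tissues that can be taken along with a lung, had 2 higher and 7 lower of 10 (median -0.51, and -0.52 against PBS), and 5 of those 7 are in the B or T cell list as well. The mean of that list was -0.63 to -0.40 in inhaled and -0.19 to 0.20 in untreated samples, there too lowest in sample 3 and highest in sample 4. The part of such tissue in the lymphocyte values was not tested.

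Of 27 T cell genes 1 rose and 22 fell (median -0.87, and -0.73 against PBS). Cd3d, a chain of the T cell receptor complex, fell by 1.49, Lck, its kinase, fell by 1.32 and Cd8b1, of cytotoxic T cells, fell by 1.31. Cd3e, another chain of that complex, was at 10.98, 10.98 and 10.85 against 10.92, 11.06, 10.87 and 11.43 and did not pass (-0.13). Cd3e was lower within slide 3 (-0.57) and with median centring (-0.47), and it was higher by 0.42 against PBS. The probe of Cd4 was higher by 0.35, was at -0.03 with median centring, and its second probe was at -0.08. Of 18 genes of activated and regulatory T cells 5 rose and 5 fell (median -0.01).

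Of 24 NK and cytotoxic genes 2 rose and 21 fell (median -1.02, and -0.69 against PBS). Gzma, a granzyme, was at 10.73, 11.41 and 10.86 against 12.66 (sample 3) to 13.88 (sample 4), and fell by 2.24 ± 0.23. The NK cell receptor genes Klrb1c and Ncr1 fell by 1.83 and fell by 1.0, and a second probe of Klrb1c fell by 0.70. Ncr1 was well above background in 1 of 3 inhaled samples, while Gzmk rose by 0.26. Antigen presentation genes were lower as well. Of 15 class II genes 11 fell (median -0.39), and the number of the 15 that fell was 6 with cyclic loess and 7 against PBS or without untreated sample 4. H2-Oa, of B cells and dendritic cells, fell by 1.71, and the class II chain H2-Aa fell by 1.16. H2-Ab1 fell by 0.31 and did not pass with cyclic loess (-0.06) or without inhaled sample 1 or 3 or untreated sample 1, 2 or 4 (-0.30 to -0.21). Of 19 class I and immunoproteasome genes 2 rose and 15 fell (median -0.36), with the peptide pump Tap1 at -1.48 and B2m, the common light chain, at -0.89.

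**Figure D3:**
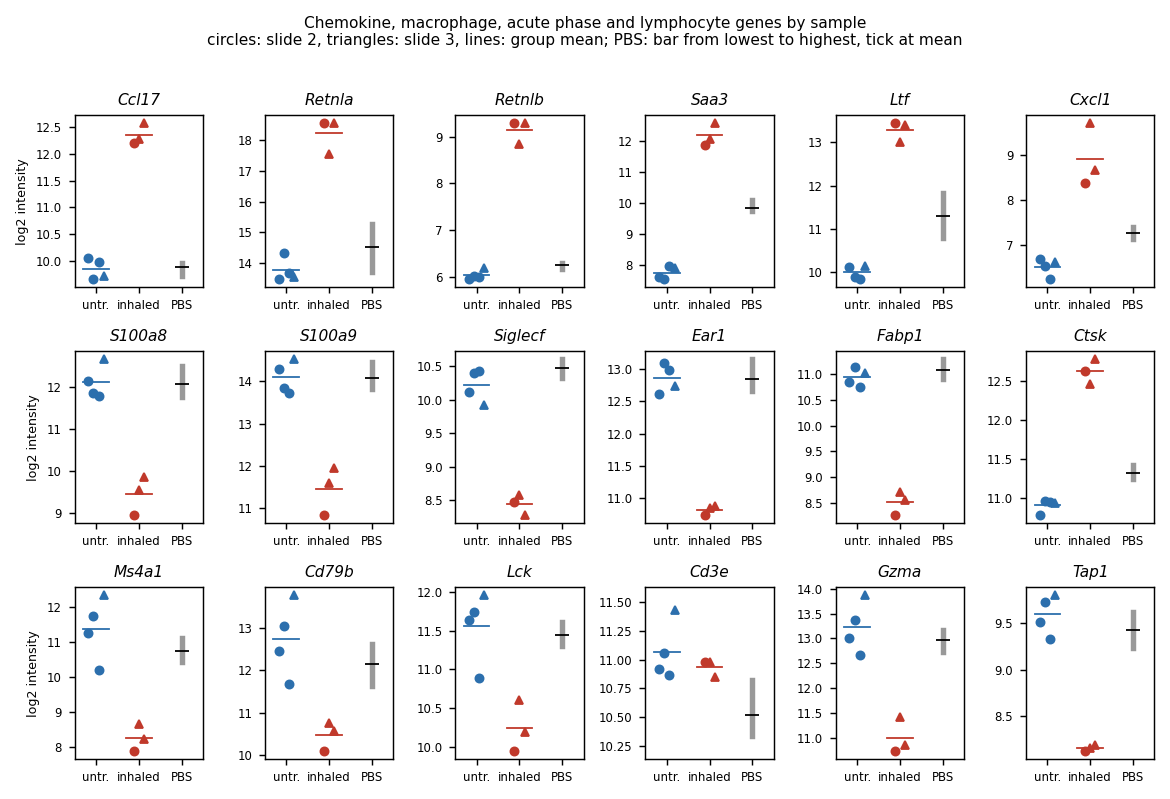
Log2 intensity of 18 immune genes in each sample, with the group means as lines, slide 2 as circles, slide 3 as triangles and the 4 PBS samples as a grey bar from lowest to highest. Ccl17, Retnla, Saa3 and Ltf lie above and S100a8, Siglecf, Ms4a1 and Gzma below all untreated samples, and Cd3e overlaps (10.85 to 10.98 against 10.87 to 11.43).

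Genes that glucocorticoids induce were mostly higher. Of 32 kept members 22 rose and 5 fell (median 0.66, and 0.70 against PBS), with a median of 0.48 within slide 2 and of 1.14 within slide 3. With median centring 13 of the 32 passed as higher. Fkbp5, a chaperone of the glucocorticoid receptor, was at 12.69, 12.55 and 12.72 in inhaled samples and at 11.13, 10.43, 10.60 and 10.58 in untreated samples, a rise of 1.96 ± 0.14. Zbtb16, a steroid-induced transcription factor, rose by 2.33 ± 0.43, and its untreated samples ranged from 10.50 to 12.17. Tsc22d3, which encodes the mediator GILZ, rose by 1.70 ± 0.27, by 1.39 within slide 2 and by 2.47 within slide 3. Hif3a rose by 1.86, and its second probe by 0.64. The receptor gene Nr3c1 fell by 0.36 with the chosen probe and was higher by 0.61 with its other probe. Hsd11b1, the enzyme that restores active hormone, fell by 0.80, and Sgk1, a kinase that steroids induce, fell by 0.37. Sgk1 was at -0.06 against PBS and did not pass there, nor without inhaled sample 1 or 3 or untreated sample 1 or 3 (-0.34 to -0.27).

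The metallothionein genes Mt1 and Mt2, small metal-binding proteins that metals and glucocorticoids both induce, are part of this list. Metals act through metal response elements, which were searched here with the loose pattern TGCNCNC. N stands for any base, so a match need not be such an element. In the 250 bases upstream of the RefSeq start (both strands), Mt2 holds 5 matches and Mt1 holds 1, and 47.2% of 27025 genes hold at least 1. The sequence of Mt2 (GRCm38.p6, chr8:94172368-94172617, plus strand) is shown for the number of its matches, which are in capitals.
Mt2: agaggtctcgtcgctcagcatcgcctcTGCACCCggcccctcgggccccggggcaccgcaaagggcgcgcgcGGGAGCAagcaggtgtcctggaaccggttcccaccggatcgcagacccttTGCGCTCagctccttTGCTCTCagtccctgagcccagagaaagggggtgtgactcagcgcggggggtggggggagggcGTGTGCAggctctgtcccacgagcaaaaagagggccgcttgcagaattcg
Mt2 was at 14.20, 14.88 and 14.40 against 12.45, 12.50, 12.67 and 12.25, a rise of 2.06 ± 0.13, and Mt1 rose by 1.35 ± 0.09. Both were clear of all untreated samples, and the rises were 2.05 and 1.16 against PBS. Of 14 kept metallothionein and zinc genes Mt1 and Mt2 were higher and 3 lower than in untreated samples (median -0.03), whereas 7 were higher and 3 lower than in PBS samples (median 0.22). The short element TGTTCT of the glucocorticoid receptor was found upstream of 5 of 27 genes of the steroid list (18.5%) and of 18.2% of all genes, so its share in the list is that of the background.

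Heat shock genes rose too, with 14 of 20 higher and 4 lower (median 0.51), and 6 higher with median centring. Hsph1 and Hsp90aa1, cytosolic chaperones, rose by 1.47 and 1.32. Hspa1a, the inducible chaperone, was at 9.81, 10.53 and 10.41 against 10.04, 8.65, 10.09 and 8.36, and its rise of 1.03 (adjusted p = 0.0360) did not pass without inhaled sample 2 or 3 or untreated sample 2 or 4 (0.74 to 1.02).

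The circadian clock genes differed between the groups and also among the untreated samples. Of 23 members 13 rose and 1 fell (median 0.59), and against PBS 8 rose and 1 fell (median 0.08). Dbp, a clock output gene with a steep daily rhythm, was at 11.14, 14.88, 10.13 and 14.55 in the untreated samples, high in samples 2 and 4 and low in samples 1 and 3. The inhaled samples lay between, at 13.74, 12.74 and 13.58, and the difference of 0.59 ± 0.91 did not pass. Nr1d1, a repressor of the clock, was at 9.50, 10.95, 8.73 and 10.77 in the untreated samples, the same order, and did not pass (-0.74). It did pass as lower without untreated sample 3 (-1.15), with median centring (-0.95) and against PBS (-1.36). Arntl, the activator of the clock, runs opposite to Dbp in most tissues and was at 10.63, 9.65, 10.66 and 9.62, high in untreated samples 1 and 3. In inhaled samples it was at 7.30, 9.15 and 8.17, below all untreated samples, and fell by 1.86 ± 0.41. Arntl was at -0.33 against PBS and did not pass. Nfil3, a repressor that opposes Dbp, was at -0.47, and it rose by 0.79 against PBS. The time of day at which each lung was taken is not given in the sources used here, and its part in these values was not tested.

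The period and cryptochrome genes rose. Per1 was at 13.98, 13.70 and 14.07 against 12.66, 13.06, 13.02 and 12.02, a rise of 1.24 ± 0.30, and Per2 and Per3 rose by 1.60 and 1.87, with the lowest inhaled value in sample 2 for all 3. Ciart, a clock repressor, rose by 1.76 and Cry2 by 1.39 ± 0.14. Cry2 was at 0.03, Per2 at 0.69 and Per3 at 0.43 against PBS, and these did not pass. The E-box CACGTG, through which the clock activator works, was found upstream of 5 of 19 clock genes (26.3%) and of 6.86% of all genes. The 250 bases upstream of Per1 (GRCm38.p6, chr11:69098699-69098948, plus strand), a clock gene that glucocorticoids induce too, are shown with the E-box in capitals.
Per1: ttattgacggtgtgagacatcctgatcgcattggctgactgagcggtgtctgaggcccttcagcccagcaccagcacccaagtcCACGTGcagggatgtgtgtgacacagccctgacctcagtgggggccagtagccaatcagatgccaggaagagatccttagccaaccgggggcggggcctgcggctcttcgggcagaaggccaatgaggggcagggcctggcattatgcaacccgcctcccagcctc
The D-box TTATGTAA, the site of Dbp and Nfil3, was found upstream of 1 of the 19, Per3, and of 0.977% of all genes.

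**Figure D4:**
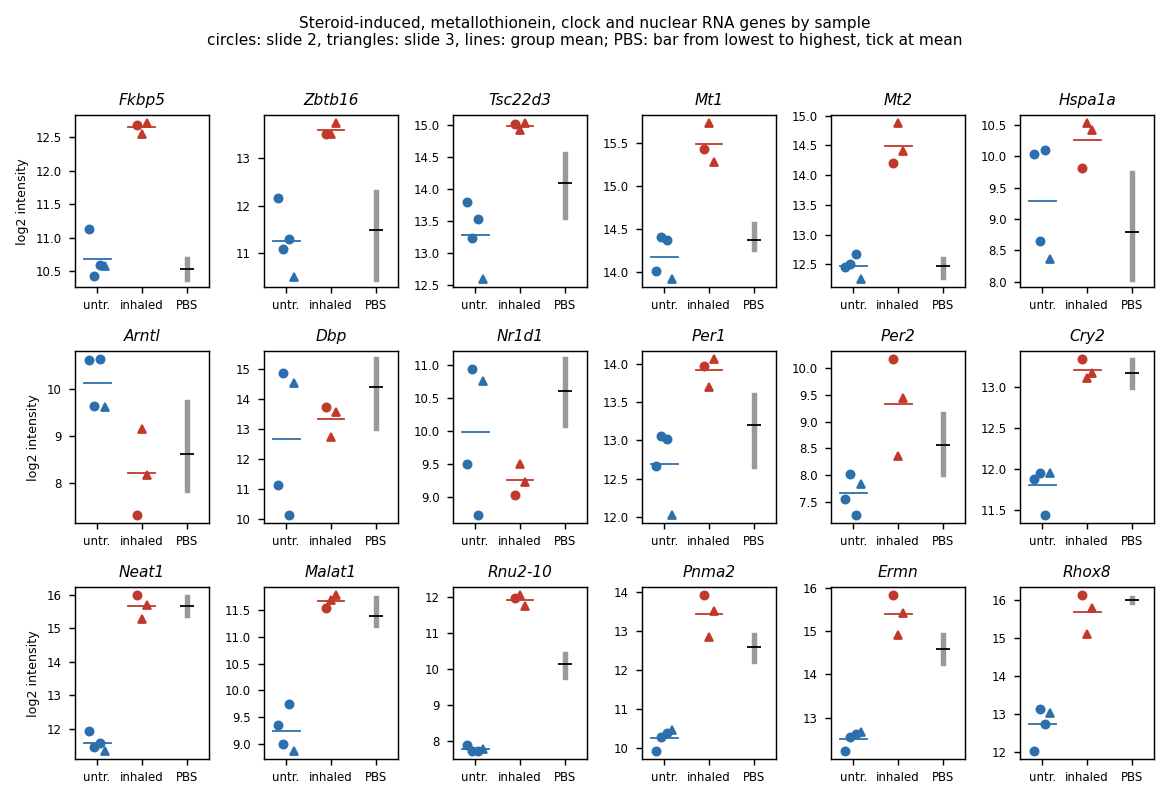
Log2 intensity of 18 stress, clock and nuclear RNA genes in each sample, with the group means as lines, slide 2 as circles, slide 3 as triangles and the 4 PBS samples as a grey bar from lowest to highest. Fkbp5 and Mt2 lie above all untreated samples, Dbp ranges from 10.13 to 14.88 among untreated samples, and Neat1 is high in inhaled samples and in PBS samples alike.

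Nuclear RNAs showed some of the largest rises against untreated samples and much smaller ones against PBS. Of 14 kept nuclear noncoding RNAs 12 rose and none fell (median 0.94), and against PBS 6 rose and 2 fell (median 0.24). Neat1, the scaffold of paraspeckles, was at 16.01, 15.29 and 15.70 in inhaled samples and at 11.92, 11.44, 11.58 and 11.32 in untreated samples, a rise of 4.05 ± 0.13, and the PBS samples had a mean of 15.66. Malat1, of nuclear speckles, rose by 2.48 ± 0.16 and was at 0.31 against PBS. The spliceosomal and nucleolar RNA genes Rnu3b1, Rnu2-10 and Rnu1b6, which have near-identical copies, rose by 4.36, 4.14 and 3.96, and Rmrp, the RNA of a ribosomal RNA processing enzyme, by 2.60. Against PBS these 4 rose by 1.60, 1.80, 0.82 and 1.53. The mean of the list was 1.80 to 1.91 above the untreated mean in inhaled samples and 1.33 to 1.39 in PBS samples, and -0.07 to 0.08 in untreated samples. The part of whatever sets these RNAs in the other differences from untreated samples was not tested.

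A set of genes with no list in common rose by a like amount. Pnma2, Trpm1, Akap7, Rhox8, Ermn and Pinx1 rose by 2.89 to 3.19. Each rose more within slide 2 (3.46 to 3.87) than within slide 3 (2.34 to 2.63), a difference between slides that did not pass for any of them (adjusted p = 0.529 to 0.577 in limma). No gene tested passed for such a difference in limma, and 2108 had an unadjusted p under 0.05. Against PBS, Pnma2 was at 0.86, Trpm1 at 0.92, Akap7 at 0.68, Ermn at 0.82, Pinx1 at 0.66 and Rhox8 at -0.33. The other kept probes of Akap7 (-0.20 and -0.03), Rhox8 (-0.23) and Ermn (-0.10) did not rise, so for these 3 the change belongs to 1 probe and not to every probe of the gene.

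**Figure D5:**
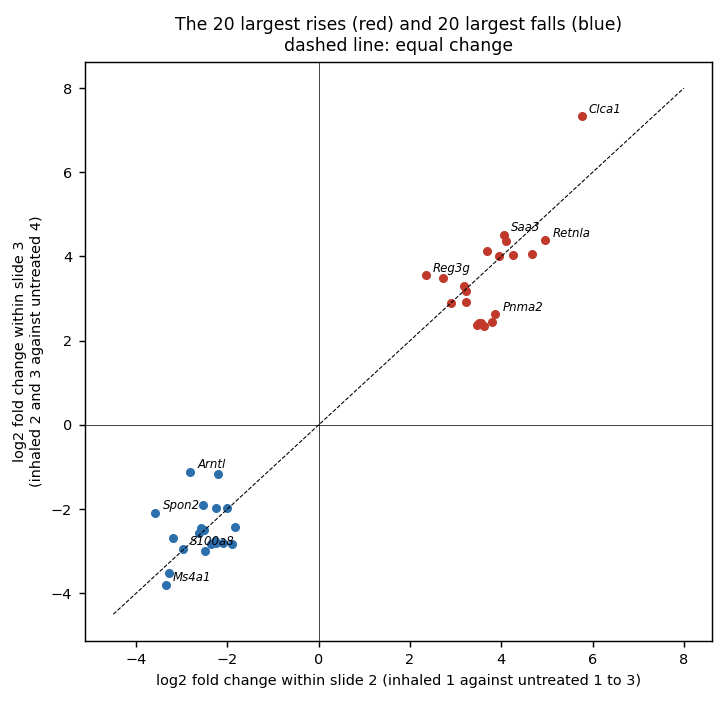
Log2 fold change within slide 3 against that within slide 2 for the 20 largest rises (red) and the 20 largest falls (blue), with the line of equal change dashed. The genes were chosen by the change over both slides, and all 40 keep its sign within each slide, while Clca1 (5.76 and 7.33), Pnma2 (3.87 and 2.63) and Arntl (-2.82 and -1.11) lie off the line.

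Genes of oxidant defence did not rise as a group. Of 30 targets of Nrf2, the factor that answers oxidants, 3 rose and 18 fell (median -0.22), and against PBS 4 rose and 7 fell (median -0.05). Gclc, the catalytic subunit of glutathione synthesis, rose by 1.27 ± 0.12. Nqo1, a quinone reductase, fell by 0.52 and was at -0.19 against PBS. Gstm3 fell by 1.30, with its second probe at -0.12. The haem oxygenase gene Hmox1 was at 0.00 with the chosen probe and at -0.70 with the other. Of 20 cytochrome P450 genes 2 rose and 13 fell (median -0.48). Cyp1a1, the oxidase that the aryl hydrocarbon receptor induces, was at 8.72, 10.55 and 9.80 against 10.96, 10.98, 11.17 and 10.64, a change of -1.21 ± 0.29. It was at -2.26 within slide 2 and at -0.51 within slide 3, but it was higher by 0.80 against PBS. Cyp26b1, which breaks down retinoic acid, fell by 1.58 and did not pass without inhaled sample 1 (-1.27), inhaled sample 2 (-1.47) or untreated sample 2 (-1.39). Nor did Cyp26b1 pass with arrays weighted by their precision (-1.21) or with a robust estimate of the spread (-1.58). Within slide 2 Cyp26b1 was at -2.16 and within slide 3 at -1.43. Of 40 ribosomal protein genes 1 rose and 28 fell (median -0.26), with Rps19 and Rpl5 at -0.70, and with cyclic loess 13 fell.

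Genes of vessels and matrix were lower. Of 29 endothelial genes 3 rose and 19 fell (median -0.45, and -0.30 against PBS). Aplnr, a receptor of capillary and venous cells, fell by 1.79 ± 0.12, Pecam1 (CD31) fell by 1.21 and the tight junction gene Cldn5 fell by 0.90. Of 35 collagen and matrix genes 4 rose and 23 fell (median -0.37), and 14 fell against PBS. Loxl1, a cross-linker of elastin, fell by 1.38 with 1 probe and by 1.81 with another. Eln, elastin itself, fell by 0.98 and Col1a1, the main collagen chain of scars, fell by 0.52, and these were at 0.48 and 0.20 against PBS. Igfbp3 fell by 2.21, C1qtnf2 fell by 2.04, Shisa2 fell by 1.96, Ifitm6 fell by 2.05 and Spon2 fell by 2.62, and Spon2 was at -0.64 against PBS and did not pass.

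Whole lung RNA also carries blood, and heart muscle where it is attached. Of 16 red cell and platelet genes none rose and 15 fell (median -0.78), and against PBS 8 fell (median -0.28). Hbb-b2, a beta globin chain with a near-identical copy, was at 13.34, 14.31 and 13.38 against 14.34, 14.90, 15.25 and 14.88, and fell by 1.1 ± 0.20, and Alas2, of haem synthesis in red cells, fell by 1.45. The list mean was -0.96 to -0.69 in inhaled and -0.28 to 0.15 in untreated samples, with no overlap. The B cell list, at -1.27 to -0.98 against -0.65 to 0.56, also did not overlap. The part of blood left in the lungs in the lymphocyte and S100a8 values was not tested. Cardiac muscle genes, 10 of 25 lower and 1 higher (median -0.41), varied widely within groups, with 17 lower without untreated sample 3 and 23 lower against PBS. Their list mean ran from -0.76 to 0.52 in untreated samples, from -0.68 to -0.04 in inhaled samples and from 0.79 to 1.06 in PBS samples. The atrial genes Myl7 (-1.08) and Nppa (0.13) overlapped between the groups, and Myl7 did not pass without inhaled sample 1 (-0.92) or 3 (-0.85) or without untreated sample 1 (-0.76), 2 (-0.95) or 4 (-0.96).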

How the data were processed

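RNA from whole lung was hybridised to 2-colour Agilent arrays, and each sample is the channel of its own dye. Per the file headers, the deposited spot intensity values were extracted with Agilent Feature Extraction 11.0.1.1 from an array design that refers to mm9, and the submitters' processing notes also name limma. The authors deposited a table of values of the same samples as well, taken here as log2 because its scale and centring are not stated, and it was used as an alternative only.

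Median signal and local background were corrected with normexp (offset 50), set to log2, averaged per probe and quantile-normalised over all 15 samples. Control spots and outlier spots were left out. A probe was kept where 3 or more samples of a group had it well above background (34271 of 55681), and 25251 genes or unnamed transcripts were tested. Genes were named through RefSeq accessions (27656 probes matched), each by its probe with the highest mean. limma 3.58.1 in R 4.3.3 fitted the 4 groups with dye as a covariate, two-sided, with Benjamini-Hochberg adjustment and a threshold of 0.05. The fit was tested on simulated data. Array number limits the precision. The 20 largest rises and falls, the members of gene lists and a few fixed genes are named. Members and lists were chosen with earlier results of these data known. Motifs were searched in RefSeq promoters (GRCm38.p6), with Python 3.11.15.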

Additional observations from a re-analysis of the deposited data

Results flagged for a closer look

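In 12 of the 187 named genes 1 untreated sample lay far from the other 3, past Dixon's critical value for 4 samples. Chance marks about 1 in 20 groups. Untreated sample 3 was lowest for Muc5b (12.41, the others at 12.87 to 12.90), Cry2 (11.44, the others at 11.88 to 11.96) and Il13 (5.89, the others at 5.98 to 6.00, none of them well above background), and highest for Cdc20 (9.86, the others at 9.62 to 9.64). Untreated sample 4 was highest for Cyp2f2 (17.89, the others at 17.37 to 17.43) and Ccr3 (7.43, the others at 6.95 to 7.02), and lowest for Chil3 (15.68, the others at 15.89 to 15.92) and Ccl24 (6.68, the others at 6.91 to 6.95). Untreated sample 1 was highest for Scgb1a1 (18.58, the others at 18.08 to 18.15) and Tff2 (9.80, the others at 9.61 to 9.64), and lowest for Ctsk (10.78, the others at 10.94 to 10.96). Untreated sample 2 was highest for Pparg (10.58, the others at 10.33 to 10.36). Groups of 3 samples were not tested in this way.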

How the results depend on the processing

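The count of higher genes was 3701 with median centring, under which the count of lower genes was 10200, and it lay within 1.5 times of 6982 under every other alternative that was run. Leaving out 1 sample at a time gave 6383 to 6833 higher and 7657 to 8188 lower genes. The replicate block gave 6712 higher and 7934 lower, but the numbers do not pair the samples, since same-numbered deviations correlated at 0.0846, 0.0546 and -0.0566. An array block for the pair on 1 array could not be estimated and was not run. Signs are given as turned where the gene passed in the main fit or in the alternative. They turned with median centring for Sftpb (-0.35), Trp63 (-0.06) and Cd4 (-0.03), and with cyclic loess for Scgb1a1 (0.71). With the mean of a gene's probes the sign turned for Nr3c1 (0.12). Against PBS in place of untreated samples they turned for Bpifa1 (-1.45), Tuba1a (0.01), Mcm2 (0.51), Mcm3 (0.26), Aqp5 (0.08), Cd3e (0.42), Nfil3 (0.79), Neat1 (-0.04), Rhox8 (-0.33), Cyp1a1 (0.80), Eln (0.48), Col1a1 (0.20) and Nppa (-2.34), and Nppa ranged from -0.83 without inhaled sample 2 to 0.69 without inhaled sample 1. Of 41 other probes of the named genes 4 went against the chosen probe at an unadjusted p under 0.05, and 16 moved the same way by less than 50% of its log2 change. The cause of these differences was not tested. Values near 18.58, the highest that the scale allows, understate a difference, and dim genes have bounds only.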

Other observations

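Targets of interferon gamma were on the lower side, and genes of the type I response less clearly so. Of 28 kept genes of the type I interferon response 6 rose and 12 fell (median -0.20), beside 27.7% and 33.2% of all genes. Against PBS 1 rose and 11 fell. The number that fell was 7 without inhaled sample 3, where 7750 of 25251 genes were lower. With cyclic loess it was 6, where 6700 of 25239 were lower. In neither was the share of the list larger than that of all genes. The list median was -0.11 within slide 2 and -0.24 within slide 3. Of 20 targets of interferon gamma, many of them GTPases of cell-autonomous defence, 1 rose and 13 fell, with a median of -0.34, and the median was -0.39 within slide 2, -0.58 within slide 3 and -0.32 against PBS. Growth factor genes of the TGF-beta, activin and BMP families had 6 higher and 13 lower of 25, with a median of -0.37 against untreated samples and of -0.15 against PBS. Mesothelial genes, of the cells that line the lung surface, had 2 higher and 8 lower of 12 (median -0.46), but 2 were lower against PBS, with a median of 0.01.

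Some stress and defence lists had medians nearer to that of all genes. Targets of p53, the DNA damage factor, had 11 higher and 7 lower of 26 (median 0.11), with 5 higher under median centring. Genes of endoplasmic reticulum stress had 10 higher and 6 lower of 25 (median 0.18), and 6 were higher without inhaled sample 2 or without untreated sample 4, 3 within slide 2 and 1 with median centring. Complement genes had 9 higher and 6 lower of 23, with a median of 0.00, and 3 higher and 12 lower with median centring. The median of all genes tested was -0.03.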
